A study of Mus musculus with 2 samples.

Results

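The cyclin D and G1 phase regulators are 10 genes that govern the step from G1 into S phase of the cell cycle: the D-type cyclins Ccnd1, Ccnd2 and Ccnd3, their kinases Cdk4 and Cdk6, the kinase inhibitors Cdkn1b and Cdkn1c, the retinoblastoma gene Rb1 and the E-type cyclins Ccne1 and Ccne2. They are 10 of 18193 genes named on the array. Probe sets were selected by gene name, taking every one that the array's annotation assigns to 1 of these symbols and to no other gene, which gave 27 of 45101 probe sets. The genes were chosen on earlier results from these arrays, the Ccnd1 difference among them, so the values below are a description and carry no test. Liver RNA came from male C57Bl/6J mice, 9 weeks old when obtained, that ate an n-3 polyunsaturated fatty acid depleted diet with sunflower oil as its fat; the feeding period lasted 112 days. For the last 10 days the DEF/FOS group stayed on that diet (n-6 to n-3 ratio 127.2) and drank water with fructooligosaccharides, a fermentable fibre, to an intake of 0.25 g per day. The DEF/CT group was moved in those days to the control diet, which holds 5% soybean oil by weight and has a ratio of 6.9, with no added fibre. Mice of both groups were anaesthetised with ketamine and xylazine, and the treatment protocol gives 8 animals per group, where the extract protocol gives 4 to 8. RNA of each group was pooled in equal amounts per mouse and measured on 1 Affymetrix array, so there is no replicate, no error between animals and no p-value. The pools differ in the fibre and in the oil at the same time, and array and group cannot be told apart.

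D-type cyclins are made when a cell receives growth signals. They bind and activate CDK4 or CDK6, which phosphorylate the retinoblastoma protein, and E2F transcription factors released from it turn on the E-type cyclins and the genes of DNA synthesis. Proteins of the CIP/KIP family bind cyclin-kinase complexes and hold CDK2 in check. Adult hepatocytes are mostly out of the cell cycle, and cyclin D1 is the D-type cyclin best known for its induction when they re-enter it, as after loss of liver tissue.

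Signals are MAS5 intensities, which the authors scaled to a trimmed mean of 100.00 on both arrays. All differences below are log2 DEF/FOS minus log2 DEF/CT, centred on the median of the probe sets above a signal floor of 19.4, which is the median over probe sets. Where a gene has several probe sets above that floor, the one with the highest mean log2 signal stands for the gene. Among probe sets of 1 gene, the differences varied with an SD of 0.56 at signals of 19.4 to 40.2, 0.40 up to 91.8, 0.31 up to 249 and 0.22 above that. This SD is the technical spread used here, and it does not measure variation between mice or arrays. The tissue label was checked against hepatocyte genes: all 10 of the listed markers that have a probe set lay above the floor, with median signals of 5482 in the DEF/FOS and 6339 in the DEF/CT pool.

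Ccnd1, the gene of cyclin D1, was higher with DEF/FOS by all 3 of its probe sets. Its brightest probe set, 1417420_at, had a signal of 739 on the DEF/FOS array and 216 on the DEF/CT array, a centred log2 difference of 1.79 or 3.46-fold. The probe set 1448698_at gave 665 against 208, a difference of 1.69 or 3.23-fold. The dimmest, 1417419_at, gave 224 against 106, a difference of 1.09 or 2.12-fold. For each of the 3 probe sets the DEF/FOS pool is the higher by more than 2-fold. The 3 differences had an SD of 0.38 among themselves. All 3 are larger than the technical spread for their signals, which was 0.22 for the first pair and 0.31 for the last. In rank, 35 of 11163 genes above the floor had a difference at least as high as that of the brightest Ccnd1 probe set, itself included, and 0.699% of genes differed as much in either direction. At the threshold of 2-fold higher, 1.74% of genes above the floor were called, and 0.874% of the genes above the 75th percentile of signal, where Ccnd1 lies. Of 2029 genes with 3 or more probe sets above the floor, 3 were 2-fold or more higher by every one of them, which is 0.148%. These were Ccnd1, the peroxisomal transporter gene Abcd2 and the heat shock gene Hspa1b, of which the last 2 were named after their values were seen. Of the same 2029 genes, 1 was 2-fold or more lower by every probe set, which is 0.0493%. Ccnd1 has 3 probe sets and was chosen with its difference known, so these shares describe it and carry no test. The summed signals of Kupffer cell and macrophage markers (3550 against 2990) were higher on the DEF/FOS array too. So were those of neutrophil markers (339 against 147, mostly through S100a8 and S100a9) and of cholangiocyte markers (105 against 80.1). Those of the other cell type marker lists, given below, were lower. In bulk tissue more cells of a type and more RNA per cell cannot be told apart. The part of any of these cell types in the Ccnd1 difference was not tested.

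**Figure D1:**
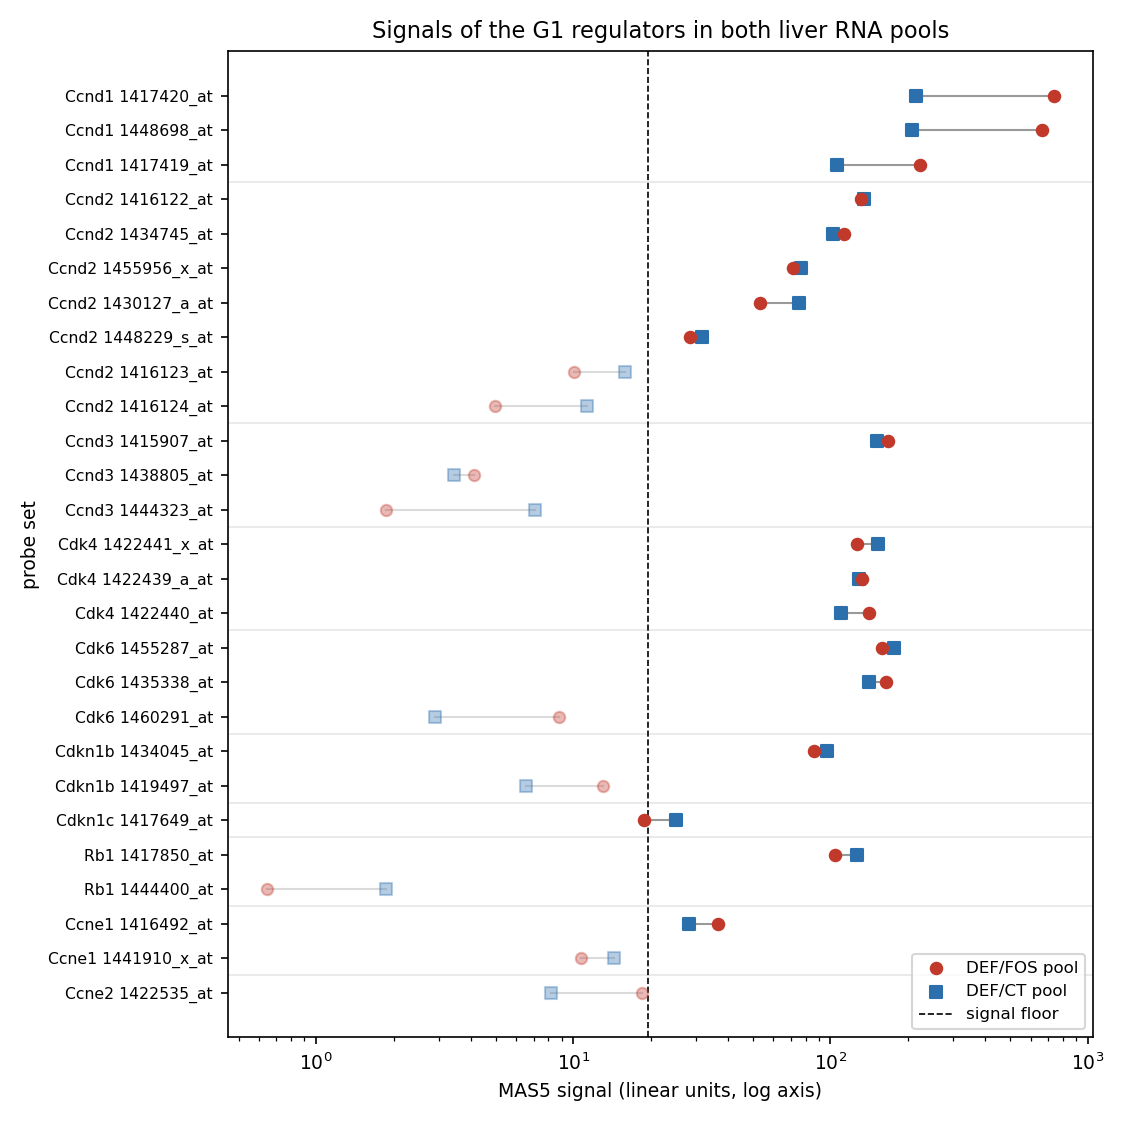
MAS5 signal (log axis) of all 27 probe sets of the G1 regulators in the DEF/FOS pool (circles) and the DEF/CT pool (squares), 1 array each, with no error bars because there are no replicates. Pale symbols have a mean log2 signal below the floor of 19.4 (dashed line); the 3 Ccnd1 probe sets show the widest gaps among probe sets above the floor, 739 against 216 for the brightest.

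Ccnd2 encodes cyclin D2, a D-type cyclin prominent in lymphoid and gonadal cells. It had 7 probe sets, 5 of them above the floor, and these differed little between the pools. The brightest, 1416122_at, had signals of 131 in the DEF/FOS and 135 in the DEF/CT pool, a difference of -0.03. The second, 1434745_at, gave 112 against 102 and was the only Ccnd2 probe set above the floor with a positive difference, 0.15. The remaining 3 ran from 28.4 to 71.6 in the DEF/FOS pool and from 31.6 to 76.9 in the DEF/CT pool. Of these, 1430127_a_at stood lowest, with 53.2 against 75.6 and a difference of -0.49, beyond the technical spread of 0.40 at its signal. The sign of the gene's difference is not settled, since the value was 0.03 with no floor.

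Ccnd3, the gene of cyclin D3, was represented by 1 probe set above the floor. It had a signal of 168 on the DEF/FOS array and 151 on the DEF/CT array, a difference of 0.16 against a technical spread of 0.31. Its other probe sets had signals of at most 7.10 in either pool and cannot be ranked. Among the D-type cyclins, the smallest Ccnd1 difference (1.09) was larger than every Ccnd2 and Ccnd3 difference above the floor, which ran from -0.49 to 0.16.

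Cdk4 and Cdk6 encode the kinases that the D-type cyclins activate. All 3 Cdk4 probe sets lay above the floor and did not share a sign. The brightest, 1422441_x_at, had 127 on the DEF/FOS array and 153 on the DEF/CT array, a difference of -0.25. The probe set 1422439_a_at gave 133 against 129, a difference of 0.05. For 1422440_at the signals were 141 and 110, a difference of 0.38, which exceeds the technical spread of 0.31. The suffix of the brightest probe set marks probes that may also match other transcripts, and without such probe sets the Cdk4 difference was 0.05. For Cdk6 the probe set 1455287_at gave 158 in the DEF/FOS and 177 in the DEF/CT pool, a difference of -0.15. The probe set 1435338_at gave 165 against 142, a difference of 0.23. Both lie within the spread of 0.31 and point opposite ways, so that the median over the Cdk6 probe sets was 0.04. The third Cdk6 probe set had signals of 8.80 and 2.90, below the floor in both pools.

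The inhibitors and the retinoblastoma gene had small negative differences. Cdkn1b, the gene of the CIP/KIP inhibitor p27, had a signal of 86.2 on the DEF/FOS array and 96.9 on the DEF/CT array, a difference of -0.15 against a technical spread of 0.40. Its other probe set was below the floor, at 13.1 and 6.53. Rb1, whose protein restrains E2F factors, gave 104 against 126, a difference of -0.27 against a spread of 0.31. The second Rb1 probe set was the dimmest of all members, at 0.644 and 1.86. Cdkn1c, the gene of the imprinted inhibitor p57, had its only probe set close to the floor, at 18.8 in the DEF/FOS pool, which is below it, and 25.2 in the DEF/CT pool. Its difference was -0.40 where the technical spread is 0.56, and measured against the floor it was at least 1.28-fold lower with DEF/FOS.

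The E-type cyclins, which activate CDK2 late in G1, were dim in both pools. Ccne1 had a signal of 36.6 on the DEF/FOS array and 28.2 on the DEF/CT array, a difference of 0.39 where the technical spread was 0.56. Its other probe set lay below the floor, at 10.8 and 14.4. Ccne2 had 1 probe set, with signals of 18.5 in the DEF/FOS and 8.16 in the DEF/CT pool. Both are below the floor, so no fold is given for Ccne2. Cdkn1c and Ccne2 thus stand on either side of the floor, with geometric mean signals of 21.8 and 12.3.

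Across the members, 18 of 27 probe sets and 9 of 10 genes lay above the floor. Of 16 member probe sets annotated with a RefSeq mRNA, 12 were above it, and of the 11 annotated otherwise or without an accession, 6 were. By the brightest probe set, 1 of 9 genes was 1.5-fold or more higher with DEF/FOS, Ccnd1, where 6.75% of all genes above the floor passed. None of the 9 was 1.5-fold or more lower (0 genes), where 7.82% of all genes were. The median difference of the 9 genes was -0.15, and -0.15 also without Ccnd1, beside -0.00043 over all genes above the floor. The 15 probe sets of the other 8 genes ran from -0.49 to 0.39, with 6 positive and 9 negative, and 0 of them reached 1.5-fold in either direction. For each of these 8 genes, the difference of the brightest probe set was smaller than the technical spread at its signal. How often genes pass the threshold depends on signal. Of genes at signals of 19.4 to 40.2, the range of Ccne1 and Cdkn1c, 12% were higher by 1.5-fold or more and 21.8% lower by as much. At signals of 40.2 to 91.8, the range of Cdkn1b, these shares were 9.82% and 8.65%. At 91.8 to 249, the range of Ccnd2, Ccnd3, Cdk4, Cdk6 and Rb1, they were 4.8% and 3.4%. At signals above 249, the range of Ccnd1, they were 2.88% and 2%.

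**Figure D2:**
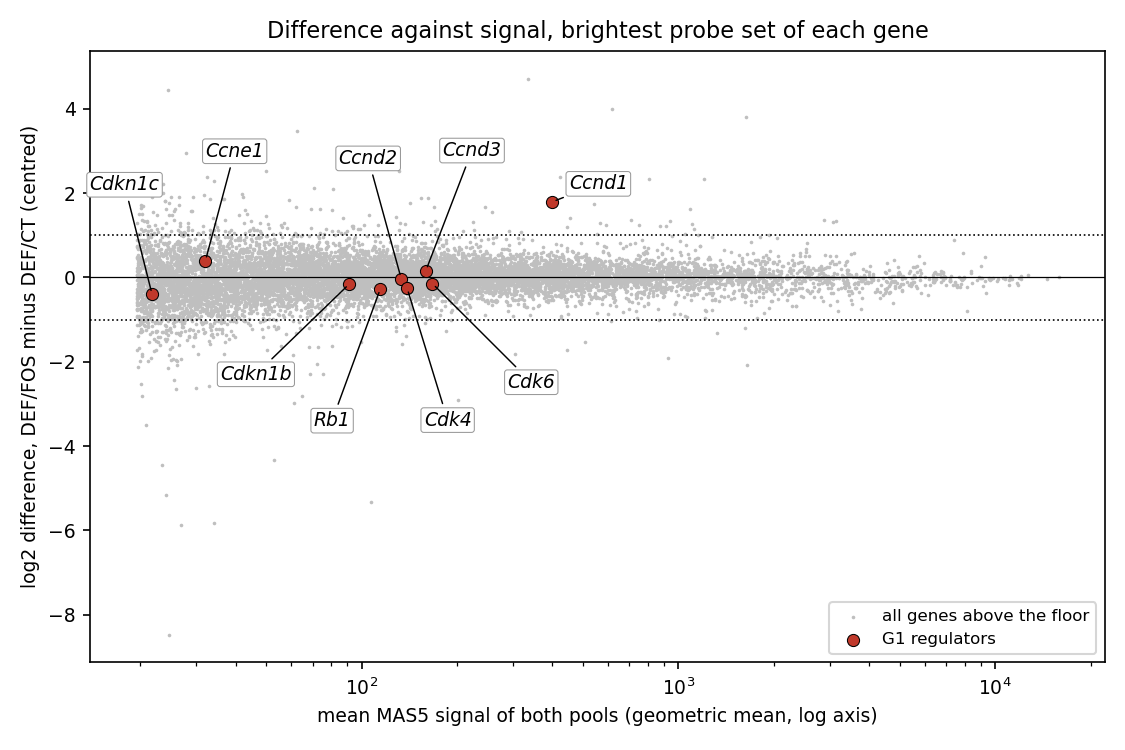
Centred log2 difference (DEF/FOS minus DEF/CT) against the geometric mean signal of both pools (log axis) for 11163 genes above the floor (grey) and the 9 G1 regulators above it (red, named), 1 array per group; dotted lines mark 2-fold. Ccnd1 lies at 1.79, and the other 8 named genes lie between -0.40 and 0.39.

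The sign of the small differences depended on the setting for some members, whereas that of Ccnd1 did not. Over 8 other settings of scaling, floor, offset and choice of probe set, the Ccnd1 difference ran from 1.65 to 1.85. These settings reread the same arrays and are no independent support. Raising signals to the floor and leaving out probe sets ending in _x_at or _s_at could not change the Ccnd1 value. For Ccnd1, leaving out the centring or moving the floor only changed the constant taken from every gene. Differences of Ccnd3 ran from 0.13 to 0.22 over the same settings, and those of Rb1 from -0.29 to -0.21. Cdkn1b ran from -0.18 to -0.10. Values of Cdk4 ran from -0.28 to 0.05, of Cdk6 from -0.17 to 0.04 and of Ccnd2 from -0.09 to 0.03, so these 3 genes have no settled direction. Ccne1 ran from 0.20 to 0.48 and Cdkn1c from -0.42 to -0.16 over the 7 settings in which they had a value. Ccnd3, Rb1, Cdkn1b, Ccne1 and Cdkn1c each have 1 probe set above the floor. Settings that choose among probe sets above the floor therefore could not change their values. Their differences also lie within the technical spread, so a sign kept over the settings does not settle their direction.

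**Figure D3:**
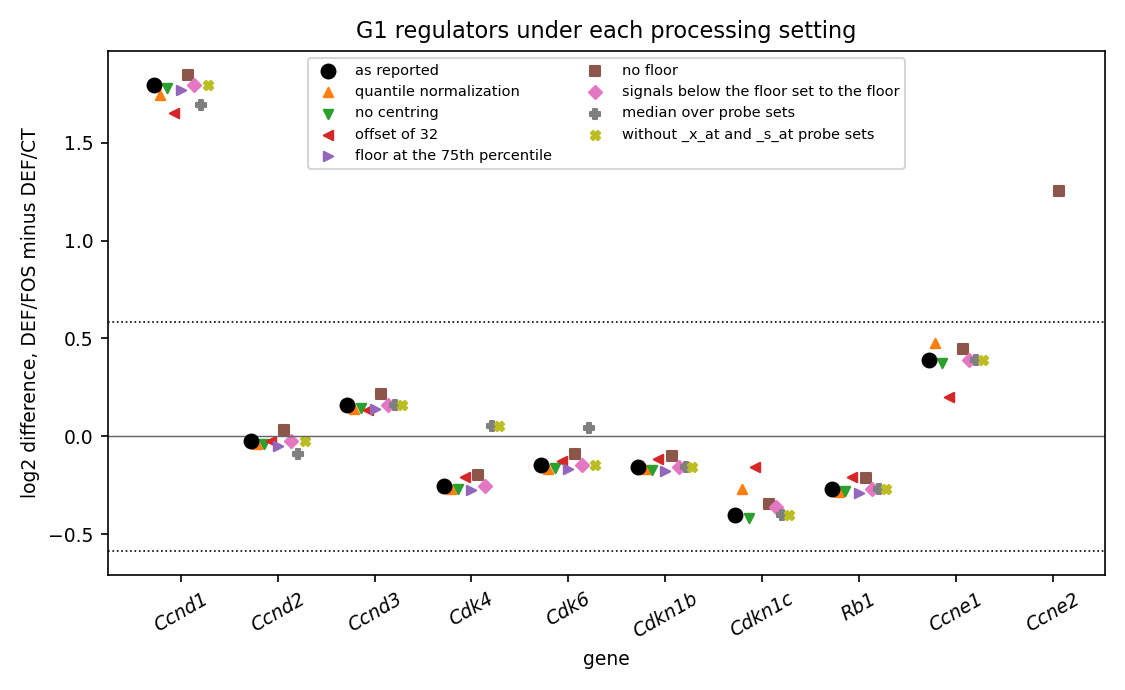
Log2 difference (DEF/FOS minus DEF/CT) of each G1 regulator as reported (black circles) and under 8 other processing settings (coloured symbols); dotted lines mark 1.5-fold. Ccnd1 stays between 1.65 and 1.85, while Ccne2 has a value only with no floor, where its 2 signals are both dim.

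Other genes of the G1 machinery were counted in lists by role. Of the INK4 inhibitors and p21, 3 of 5 genes lay above the floor, and their median difference was 0.05. Cdkn1a, the gene of the CIP/KIP inhibitor p21, had 309 on the DEF/FOS array and 84.8 on the DEF/CT array, a difference of 1.88 by its brightest probe set and 1.17 by the other. Of the 3 genes, only Cdkn1a was 1.5-fold or more apart, where 6.75% of all genes were higher and 7.82% lower by as much. Cdkn2c, an INK4 inhibitor of CDK4 and CDK6, gave 72.5 against 70.6, a difference of 0.05, and Cdkn2d gave 30.8 against 37.9, a difference of -0.29. Of the CIP/KIP genes, Cdkn1a thus had a positive difference, while those of Cdkn1b and Cdkn1c were negative and within the technical spread.

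Pocket proteins and E2F factors, which act below the D-type cyclins, had 11 of 12 genes above the floor, with a median of 0.04. Of these, 2 were higher by 1.5-fold or more and 0 lower by as much, where 6.75% and 7.82% of all genes were. Over the 5 genes above the 75th percentile of signal the list's median was -0.28. E2f3, an activating E2F, had 84.9 against 53.5, a difference of 0.68, but its other probe set gave -0.49. E2f5 had 144 against 94.7, a difference of 0.62, with values down to -0.26 over its 3 probe sets. Tfdp1, the dimer partner of E2F proteins, gave 186 against 131, a difference of 0.53. Rbl2, the gene of the pocket protein p130, which is typical of resting cells, gave 141 against 204, a difference of -0.52, and 0.14 by its other probe set.

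In the list of CDK2, the CDK-activating kinase and the phosphatase and kinase that set CDK phosphorylation, all 6 genes lay above the floor, with a median of 0.19. Taking each gene at the median of its probe sets turned the list's value to -0.05. Cdc25a, a phosphatase that activates CDK2, was 2.44-fold higher with DEF/FOS at 88.5 against 36.6, with differences of 1.29 and 1.68 in its 2 probe sets. Wee1, the kinase that opposes it, gave 61.5 against 42.7, a difference of 0.54. Mnat1, an assembly factor of the CDK-activating kinase, was 1.54-fold lower at 39.4 against 61.1. Cdk7, the catalytic part of that kinase, differed by 0.31 by its brightest probe set, with values down to -1.05 over its 4 probe sets.

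The list of ubiquitin ligase parts for G1 cyclins and p27, which also holds the kinase gene Gsk3b, had 10 of 11 genes above the floor. Its median was -0.27. Of these, 0 were higher by 1.5-fold or more and 1 lower by as much, beside the same shares of all genes. That gene was Skp2, the substrate receptor for p27, at 16.5 in the DEF/FOS pool, below the floor, and 43.1 in the DEF/CT pool, which makes it at least 2.19-fold lower. Ccnf differed by -0.43, with 0.08 by its other probe set, and Fbxo4, a receptor described for cyclin D1, by -0.40. Gsk3b, a kinase that phosphorylates cyclin D1 ahead of its export and breakdown, differed by -0.38, with values up to 0.50 over its 5 probe sets.

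Mitogen receptors, their ligands and regulators of Ccnd1 had 15 of 17 genes with a probe set above the floor, with a median of 0.06, 2 genes higher by 1.5-fold or more and 2 lower by as much, where 6.75% and 7.82% of all genes were. With signals under the floor raised to it the counts were 2 and 1, since 1 of the lower genes, Foxm1, is below the floor in the DEF/FOS pool. Hbegf, a ligand of the epidermal growth factor receptor, was at least 1.52-fold higher with DEF/FOS, at 29.2 against 15.4. Tbx3, a target of beta-catenin in liver, gave 126 against 84.0, a difference of 0.60, and 0.21 by its other probe set. The receptor gene Erbb3 was 1.67-fold lower, at 664 against 1118. Foxm1, a transcription factor of the later cell cycle, gave 17.7 against 28.5 and was at least 1.45-fold lower.

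**Figure D4:**
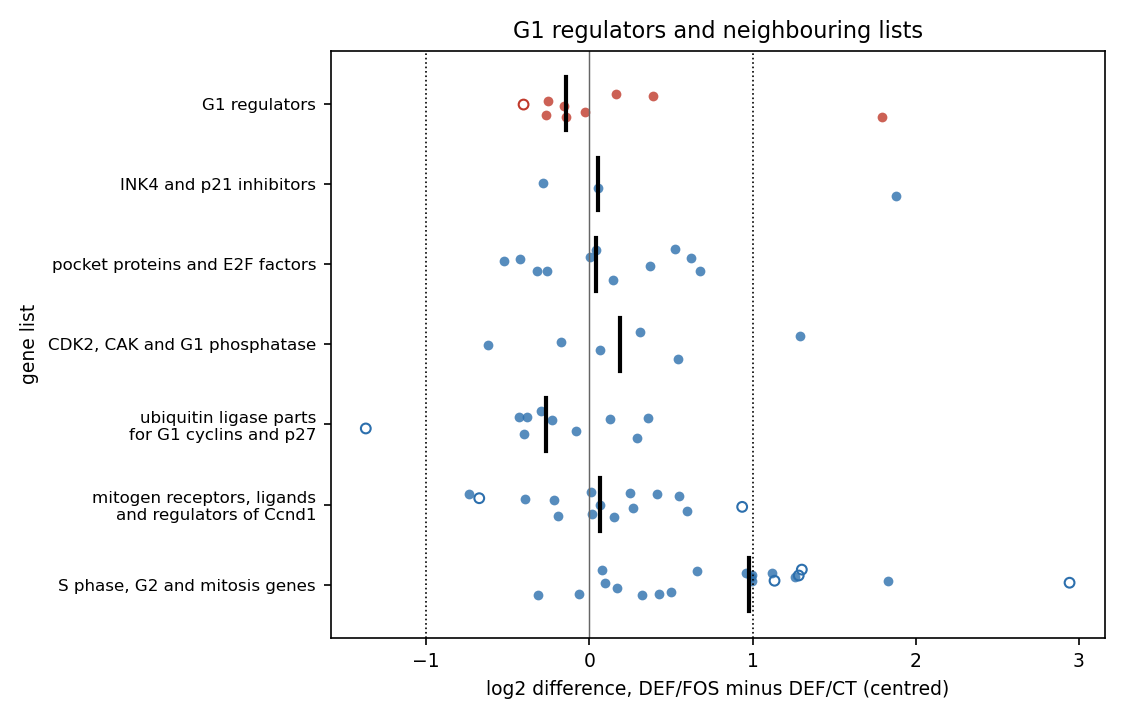
Centred log2 difference (DEF/FOS minus DEF/CT) of each gene above the floor in the G1 regulators (red) and 6 neighbouring lists (blue), 1 point per gene by its brightest probe set. Open points have 1 pool below the floor, black bars are list medians and dotted lines mark 2-fold; the median is -0.15 for the G1 regulators and 0.98 for the S phase, G2 and mitosis genes.

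Of 28 S phase, G2 and mitosis genes with a probe set, 20 lay above the floor, of which 12 were higher by 1.5-fold or more and 0 lower by as much, with a median of 0.98. Of all genes above the floor 6.75% and 7.82% were, and at the dim signals of most of this list 12% and 21.8% (19.4 to 40.2) or 9.82% and 8.65% (40.2 to 91.8). Over the G1 regulators the same counts were 1 and 0 of 9, and the lists were not tested against each other. In 4 of the 20 the DEF/CT signal was below the floor, and with such signals set to the floor the median was 0.69, and 12 genes were higher by 1.5-fold or more. Median signals were 71.3 on the DEF/FOS array and 38.4 on the DEF/CT array, where the technical spread is 0.40 or more, and the 4 genes above the 75th percentile of signal had a median of 0.11. Cdc20, an activator of the anaphase ligase, had 110 against 31.3, a difference of 1.83. The mitotic kinase gene Cdk1 was at least 3.99-fold higher, Ube2c at least 1.96-fold and the mitotic kinase gene Aurka at least 1.57-fold. The Mcm helicase, a classical E2F target, opens DNA at replication origins. Its 6 genes all had positive differences by their brightest probe set. Of 11163 genes above the floor, 5575 were positive, and the Mcm group was named after its values were seen. Every Mcm gene that had a value was also positive in each of the 8 other settings, which reread the same 2 arrays and are no independent support. With the floor at the 75th percentile only Mcm7 had a value, 0.07. As reported, the largest Mcm difference by the brightest probe set was 1.26 for Mcm5, at 53.0 against 22.3, followed by Mcm2 and Mcm6, each at 0.99. The smallest was that of Mcm7 at 0.09, with values down to -0.39 over its 4 probe sets. The other probe set of Mcm3 was also negative, at -0.16. Ccne1 and Ccne2, which belong to the same E2F-driven group, had signals of at most 36.6.

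Markers of other cells of the liver were read from the same arrays. All 8 Kupffer cell and macrophage markers lay above the floor, with a median of 0.24. Of these 1, Marco, was higher by 1.5-fold or more, where 6.75% of all genes were. Of the neutrophil markers 5 of 9 lay above the floor, with a median of 0.46, which was 0.21 with an offset of 32 and 0.16 with no floor. S100a8, at 147 against 33.8, and S100a9, at 110 against 35.1, were higher by 4.38-fold and 3.16-fold, while Csf3r differed by 0.46, Ngp by 0.10 and Elane by -0.30. The other 4 markers had a mean signal below the floor and did not share a direction. They were Mpo at 2.83 against 21.8, Ltf at 2.84 against 11.6, Camp at 1.28 against 1.80 and Cxcr2 at 29.6 against 3.88. B and plasma cell markers, 5 of 7 above the floor, summed to 369 against 1023 and had a median of -0.92, or -0.44 by the median over probe sets and -0.54 with an offset of 32. Ighm made up most of that sum, at 243 against 809, and its 5 probe sets ran from -1.72 to 0.23. Of the T and NK cell markers, 2 of 8 lay above the floor, with a median of -0.39. Cholangiocyte markers, 3 of 5 above the floor, summed to 105 against 80.1, with a median of 0.51. Endothelial and stellate cell lists had medians of -0.03 and -0.18, with 0 of 8 and 0 of 7 genes 1.5-fold or more apart. Among all genes above the floor 6.75% were higher and 7.82% lower by as much, so counts of 0 in lists this short say little. Skeletal muscle markers were 2-fold or more lower with DEF/FOS in 12 of 12 genes, where 2.19% of all genes were, with summed signals of 164 and 2839, and in 8 of the 12 the DEF/FOS signal was below the floor. The 10 hepatocyte markers summed to 65663 and 68740, with a median of -0.05. No probe set had a signal of 0. The part of these cell types in the differences of the other members, and of the S phase, G2 and mitosis genes, was not tested.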

How the data were processed

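Pooled liver RNA of 2 groups was hybridised to 1 Affymetrix array per group. The authors deposited 1 linear MAS5 signal intensity per array for each of 45101 probe sets, made with GCOS and MAS5 per the submitters' processing notes, with no version given. Their trimmed mean, with 2% left out at each end, was 100.00 on both arrays. The file has no detection calls. Of the probe sets, 64 controls were left out. The platform annotation gave 34958 probe sets 1 gene symbol, checked by Entrez identifier against a RefSeq gene table of GRCm38.p6 (0 symbols changed). Differences of log2 signals were taken without an offset in Python 3.11.15 with pandas 2.3.3 and centred on their median above the floor, -0.01. The floor is the 50th percentile of mean log2 signal and leaves 11163 genes. Genes were counted at 1.5-fold and 2-fold. A fold with 1 signal under the floor was taken against the floor. The members and the 15 other lists were chosen with earlier results of these data known. The text names all members and, of each other list, up to 4 genes with the largest differences above the floor. Genes named outside this rule are said to be so, except the neutrophil genes Mpo, Ltf, Camp, Cxcr2 and Ngp. Part of the settings were checked on simulated data. The noise there was the same at all signals, unlike the spread in these data, so the check says nothing on accuracy for dim genes. With 1 array per group, precision is limited by the number of arrays, and no batch could be separated.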

Additional observations from a re-analysis of the deposited data

How the results depend on the processing

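The differences of the 9 members above the floor, the medians of the members and the 15 lists, and the counts of members were recomputed under 8 alternatives, where each could give a value. Single genes of the other lists, the list counts and the summed signals were not, apart from the values given beside them. The alternatives were quantile normalization, no centring, an offset of 32, a floor at the 75th percentile, no floor, raising signals under the floor to it, the median over a gene's probe sets, and leaving out probe sets ending in _x_at or _s_at. Of 211 recomputed values, 193 moved little and 18 moved further. The limit was the technical spread for a member, the standard error of a median from the SD of 0.38 over all signals for a list or the members, and 1.5 times for a count. In all, 0 values were counted as reversed, but small values did change sign. These were the differences of Ccnd2, Cdk4 and Cdk6 and the medians given below. The median over the members was 0.042 with the median over probe sets, against -0.15. With no floor, 2 members were at least 1.5-fold higher instead of 1, the added gene being Ccne2, whose signals are dim in both pools. The count of members at least 1.5-fold lower was 0 in every alternative. Quantile normalization moved the share of 2-fold differences that were positive, over all genes, from 44.2% to 54.1%, and the offset of 32 moved it to 57.9%. The medians of the endothelial and hepatocyte lists had no settled sign, at -0.17 to 0.02 and -0.07 to 0.01. The same held for the pocket protein and E2F list, at -0.28 to 0.15, and the CDK2 list, at -0.05 to 0.24. It also held for the members, at -0.17 to 0.04. The cause of these shifts was not tested. No paired analysis was possible because each group has 1 array, and for the same reason no replicate could be left out. Below the floor, signals have no usable order, which limits Ccne2 and the dim probe sets of Ccnd2, Ccnd3, Cdk6, Cdkn1b, Rb1 and Ccne1.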
